A study of Mus musculus with 6 samples.

Results

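Immediate early genes are switched on within minutes of a growth factor, a wound or a mechanical stress, and they need no new protein synthesis for this. The set described here holds 10 of them, chosen by symbol because they are known to respond when cells are dissociated and sorted, and all 10 were found among 24393 listed genes. They are Fos, Fosb, Fosl1, Jun and Junb of the AP-1 family, the transcription factors Egr1, Atf3 and Myc, the nuclear protein Ier2 and the phosphatase Dusp1. The question was whether their RNA differed between cells that express HOXA13, a homeobox factor of the distal gut, and CONTROL cells. No gene of the set was called between the groups by edgeR or DESeq2, which called 0.309% and 5.05% of all tested genes. By limma voom 2 of the 10 were called, Atf3 and Junb, where 15.4% of all genes were. The larger differences lay between libraries of 1 group, above all for Egr1, Fos and Fosb.

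The libraries came from KH2 mouse embryonic stem cells of strain C57/BL/6, a line with a doxycycline-controlled locus, and consisted of 3 CONTROL and 3 HOXA13 replicates. In the HOXA13 cells the human HOXA13 gene with a FLAG tag had been placed at that locus by FLPe recombinase and selected with hygromycin. All cells had been differentiated towards endoderm on a feeder layer of the mesoderm-derived M15 line, in medium without LIF that held Noggin, CHIR, Activin-A and basic Fibroblast Growth Factor. Doxycycline at 1.25 µg/ml was given from day 4, the sort on day 6 kept cells that stained for CXCR4 and for E-cadherin, and RNA was taken after 1 more day of culture with doxycycline, so it does not date from the moment of sorting. The study's methods call the replicates of both groups biological. Whether they were separate clones or cultures, and whether CONTROL cells received doxycycline, is not stated for these samples.

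Total counts ranged from 12279884 to 17331638 per library. Mouse Hoxa13 was at most 0.709 normalised CPM, which are counts scaled to the TMM-adjusted library size, in any library. A row listed under a human identifier without a symbol had 0 counts in the 3 CONTROL libraries and 2497, 7666 and 6572 counts in HOXA13 replicates 1, 2 and 3. The libraries differed in the cell types that their markers name. The 16 epithelial markers summed to 2367 to 8764 CPM across CONTROL and 11077 to 12874 CPM across HOXA13. The 21 mesenchymal and fibroblast markers summed to 2995 to 12990 CPM across CONTROL and 2507 to 6264 CPM across HOXA13. The 13 pluripotency markers summed to 136 to 1351 CPM and 315 to 653 CPM. CONTROL replicate 2 was the lowest CONTROL library for the mesenchymal sum and the highest for the epithelial and pluripotency sums. Of 12 markers of definitive endoderm, the layer the protocol aims at, Cer1 was at 0 in every library, Sox17 was between 0.975 and 4.84 CPM, Foxa2 between 1.76 and 5.04 CPM and Cxcr4 between 2.25 and 11.3 CPM. Gata4 was higher, at 13.1 to 31.9 CPM, and so was Eomes, at 24.4 to 111 CPM, and the 12 summed to 81.1 to 192 CPM over the 6 libraries. Of the 10 that could be tested 4 were fitted higher in HOXA13 and 6 lower, with a median of -0.10 on the log2 scale. By edgeR 0 were called, where 0.309% of all tested genes were, and 1 had an unadjusted p under 0.05, where 14.1% of all had. DESeq2 called 1 and limma voom 2, where they called 5.05% and 15.4% of all genes. The E-cadherin gene Cdh1 was at 192 to 1292 CPM across CONTROL and 1690 to 1893 CPM across HOXA13.

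AP-1 is a dimer of a Fos-family and a Jun-family protein, or of Jun-family proteins, that binds DNA through a basic leucine zipper. Fos, Fosb, Jun, Junb, Egr1 and Ier2 RNA usually appears as a short pulse, since kinases of the MAP kinase cascade activate factors already bound at the promoters, such as SRF with its ternary complex partners and CREB, and the RNA is then degraded quickly. Fosl1 and Myc usually follow later and stay longer. Atf3 is a factor of cell stress and Dusp1 is a phosphatase that inactivates the MAP kinases, and thereby ends the signal.

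Promoter windows of 300 bases, from 250 before to 50 after the annotated start, were held by the RefSeq table (GRCm38.p6) for 6 genes of the set, Fos, Fosb, Jun, Junb, Atf3 and Dusp1. Fosl1, Egr1, Ier2 and Myc had no entry. The element CGTCA, searched on both strands and thus also as TGACG, is the core that CREB and ATF factors recognise. It lay in 5 of the 6 windows, all but that of Jun, and in 20.8% of 32851 windows of the same length. The full palindrome TGACGTCA, which contains the core on both strands, lay in the Dusp1 window alone of the 6 and in 1.79% of all windows. Windows of 4 genes are shown, Fos and Fosb for the spread between replicates, Atf3 for the difference between groups and Dusp1 for the full palindrome. They lie at chr12:85473640-85473939 on the plus strand (Fos), and at chr7:19309996-19310295 (Fosb), chr1:191183284-191183583 (Atf3) and chr17:26508423-26508722 (Dusp1) on the minus strand. Each is written 5′ to 3′ on the strand of its gene, with the core and the palindrome in capitals.
Fos: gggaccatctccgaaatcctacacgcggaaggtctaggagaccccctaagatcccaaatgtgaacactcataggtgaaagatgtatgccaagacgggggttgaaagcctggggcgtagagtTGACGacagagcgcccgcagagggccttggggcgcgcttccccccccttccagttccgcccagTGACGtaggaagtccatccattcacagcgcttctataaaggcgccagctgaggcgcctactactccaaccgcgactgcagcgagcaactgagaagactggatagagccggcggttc
Fosb: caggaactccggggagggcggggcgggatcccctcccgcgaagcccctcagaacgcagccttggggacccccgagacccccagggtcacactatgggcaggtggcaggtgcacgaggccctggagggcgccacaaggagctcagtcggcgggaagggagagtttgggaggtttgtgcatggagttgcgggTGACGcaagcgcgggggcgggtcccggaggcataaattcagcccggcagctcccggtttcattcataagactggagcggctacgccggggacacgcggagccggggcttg
Atf3: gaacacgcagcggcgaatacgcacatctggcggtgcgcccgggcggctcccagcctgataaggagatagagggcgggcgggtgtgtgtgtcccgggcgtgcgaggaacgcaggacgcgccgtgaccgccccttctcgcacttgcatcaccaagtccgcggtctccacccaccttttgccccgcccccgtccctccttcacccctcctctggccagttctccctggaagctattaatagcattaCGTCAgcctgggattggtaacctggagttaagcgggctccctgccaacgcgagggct
Dusp1: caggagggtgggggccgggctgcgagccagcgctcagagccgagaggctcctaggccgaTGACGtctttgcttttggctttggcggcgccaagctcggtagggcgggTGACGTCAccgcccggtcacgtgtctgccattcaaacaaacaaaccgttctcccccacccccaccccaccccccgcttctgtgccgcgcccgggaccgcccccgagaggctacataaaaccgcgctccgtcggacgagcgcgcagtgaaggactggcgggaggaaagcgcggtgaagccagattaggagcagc

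Counted from the start, the core lay at -129 to -125 and at -66 to -62 in Fos, at -60 to -56 in Fosb and at -7 to -3 in Atf3. In Dusp1 it lay at -191 to -187, and the palindrome at -143 to -136. The serum response element known as the CArG box lay in none of the 6 windows and in 1.63% of all windows. Sequence outside the windows, such as further upstream, was not searched, and Egr1 had no window. Whether these genes carry the element elsewhere was thus not tested. The AP-1 motif TGANTCA lay in none of the 6 and in 7.81% of all. The EGR motif GCGNGGGCG lay in 1 of the 6, at -50 to -42 of Fosb, and in 5.55% of all. Each motif was searched on both strands, a match is a description of letters only, and these windows were not compared with the RNA values by a test.

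All 10 genes were well expressed, with mean levels between 64.4 CPM for Fosb and 528 CPM for Egr1, which placed them between the 70.1st and 98.4th percentile of the 13600 genes tested. Between genes, levels were compared per length of transcript, as mean CPM per kb of exon over the 6 libraries. Junb was highest at 194 CPM per kb, with Egr1 at 170, Jun at 127 and Ier2 at 126. Atf3 followed at 108, Dusp1 at 107, Fosl1 at 63.7, Fos at 59.3, Myc at 38.1 and Fosb at 17.2 CPM per kb. The ranges of neighbours in this order overlapped between libraries, except for Dusp1 against Fosl1 and for Myc against Fosb. Junb ranged from 151 to 265 CPM per kb and Egr1 from 58.1 to 307 CPM per kb, so the first and second places changed with the library. Fosl1 ranged from 57.3 to 71.3 CPM per kb, within the range of Fos from 32.2 to 100.01 CPM per kb. Fosb ranged from 5.74 to 27.1 CPM per kb and lay below Myc, at 33.0 to 44.8 CPM per kb, in every library.

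**Figure D1:**
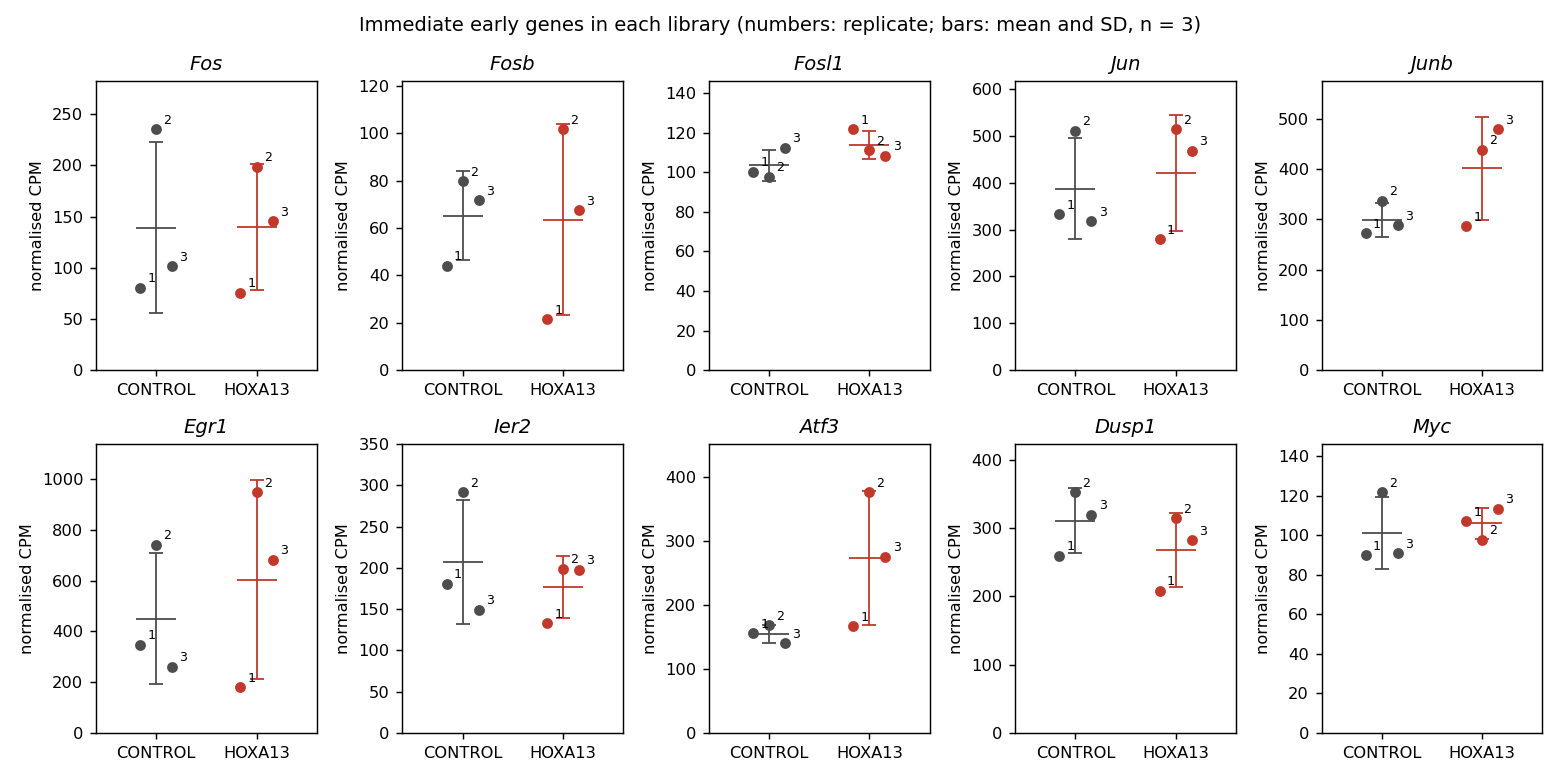
Normalised CPM of each immediate early gene (y axis, linear from 0) in the CONTROL and HOXA13 libraries (x axis), with the replicate number beside each point and the group mean and SD (n = 3) as bars. Values of the groups overlap for every gene, and Egr1 spans 180 to 950 CPM within the HOXA13 group.

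With edgeR's quasi-likelihood test, 0 of the 10 genes passed an adjusted p of 0.05, where 42 of all 13600 tested genes (0.309%) did. At an unadjusted p under 0.05 there was 1 of the 10, Atf3, against 14.1% of all tested genes. DESeq2 also called 0 of the 10, where it called 5.05% of all genes. By limma voom with sample weights 2 of the 10 were called, Atf3 and Junb, where 15.4% of all genes were. The groups did not overlap for 0 of the 10 genes, while they did not overlap for 20.0% of all tested genes. Fitted differences were above 0 for 7 genes and below 0 for 3, with a median of 0.10 on the log2 scale beside -0.01 over all tested genes. Summed over the set, the level was 1865, 2938 and 1853 CPM across CONTROL replicates 1, 2 and 3 and 1580, 3302 and 2822 CPM across HOXA13 replicates 1, 2 and 3. The sums of the groups overlapped, with means of 2219 ± 623 and 2568 ± 889 CPM (SD, n = 3 each).

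**Figure D2:**
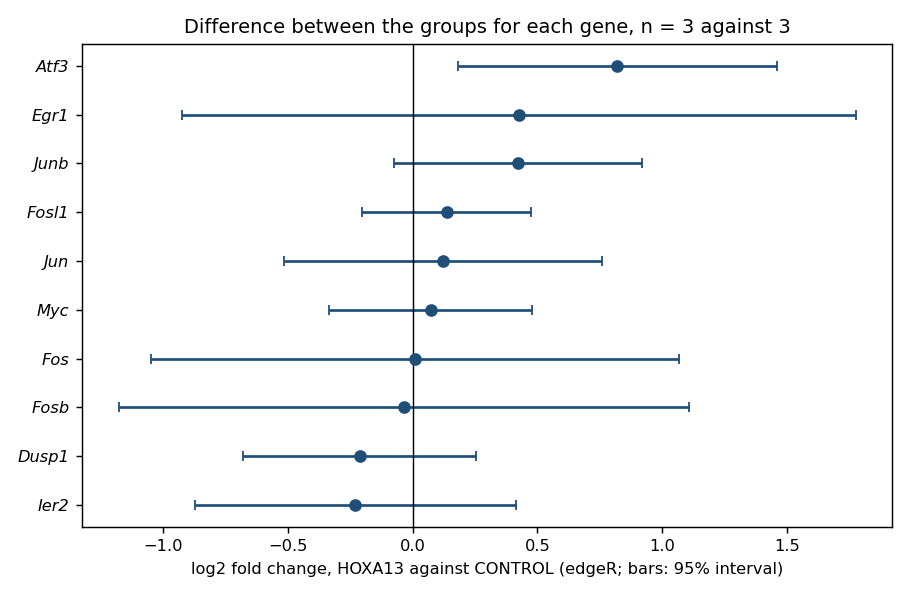
Fitted log2 fold change of HOXA13 against CONTROL (x axis) for each gene (y axis), with the 95% interval from edgeR, n = 3 against 3. The interval of Atf3, from 0.18 to 1.46, lies above 0 before adjustment, and those of the other 9 genes include 0.

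Fos encodes the founding Fos protein and is a textbook immediate early gene (ENSMUSG00000021250.7, mm9 chr12:86814840-86818223). Its level was 80.7, 235 and 102 CPM across CONTROL replicates 1, 2 and 3 and 75.6, 199 and 145 CPM across HOXA13 replicates 1, 2 and 3. The highest library was CONTROL replicate 2 and the lowest HOXA13 replicate 1, and each group reached from low to high. Group means were 139 ± 83.8 and 140 ± 61.7 CPM (SD, n = 3 each). The fitted difference was 0.01 (SE 0.46, 95% interval -1.05 to 1.07, edgeR adjusted p = 0.997).

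Fosb, the next family member, can form a stable truncated isoform that builds up in neurons, which gene-level counts do not separate (ENSMUSG00000003545.2, mm9 chr7:19888070-19895394). It was at 44.1, 79.8 and 71.8 CPM across the CONTROL replicates and at 21.5, 102 and 67.5 CPM across the HOXA13 replicates. HOXA13 replicate 1 was the lowest and HOXA13 replicate 2 the highest of all libraries, with all CONTROL values between them. HOXA13 against CONTROL differed by -0.04 (SE 0.50, 95% interval -1.18 to 1.11, edgeR adjusted p = 0.987).

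Fosl1 encodes FRA1, the Fos protein most often tied to migrating and mesenchymal cells (ENSMUSG00000024912.5, mm9 chr19:5447703-5455945). Its values were 100.4, 97.8 and 112 CPM across CONTROL and 122, 111 and 108 CPM across HOXA13. It was the steadiest gene of the set, with the highest library 1.15 times the lowest in CONTROL and 1.12 times in HOXA13. HOXA13 replicate 1, lowest for Fos and Fosb, was highest for Fosl1. In the fit the groups differed by 0.14 (SE 0.15, 95% interval -0.20 to 0.47, edgeR adjusted p = 0.753). The gene overlaps Ccdc85b on the opposite strand.

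Jun encodes the main partner of the Fos proteins and the target of the JNK kinases (ENSMUSG00000052684.3, mm9 chr4:94715725-94718913). It was at 333, 511 and 318 CPM across CONTROL and at 280, 514 and 469 CPM across HOXA13. CONTROL replicate 2 lay beside HOXA13 replicates 2 and 3, and the other CONTROL libraries lay nearer to HOXA13 replicate 1. The log2 fold change was 0.12 (SE 0.28, 95% interval -0.52 to 0.76, edgeR adjusted p = 0.896). The transcript BC042782 overlaps Jun on the opposite strand.

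Junb encodes a Jun protein that can restrain Jun and drives a different set of genes (ENSMUSG00000052837.4, mm9 chr8:87500811-87502617). Its level was 273, 337 and 288 CPM across CONTROL and 286, 438 and 479 CPM across HOXA13. HOXA13 replicates 2 and 3 were above every CONTROL library, and HOXA13 replicate 1 lay within the CONTROL range. The fitted difference was 0.42 (SE 0.22, 95% interval -0.07 to 0.92, edgeR adjusted p = 0.438). By limma voom, which weights each library by its quality, it was 0.60 with an adjusted p of 0.0312.

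Within the Jun family the shares per length were compared, since AP-1 depends on which partners are present. Jun made up 32.3%, 35.2% and 28.3% of the summed Jun, Junb and Jund level in the CONTROL replicates and 24.2%, 28.0% and 24.4% in the HOXA13 replicates. Jund, a family member that is usually expressed without a stimulus, made up 21.2%, 23.9% and 26.6% in CONTROL and 32.2%, 29.8% and 31.6% in HOXA13. Neither share overlapped between the groups, and each reached the smallest p that 3 against 3 allows (exact permutation test, two-sided, p = 0.1, adjusted p = 0.35 over 7 shares), which cannot pass 0.05. Shares of the same sum depend on each other, so these are not separate results. The level of Jun itself was not lower in HOXA13, with a fitted difference of 0.12 in overlapping groups. The share of Junb was 44.2% ± 2.94 in CONTROL and 43.3% ± 0.948 in HOXA13 (SD, n = 3 each). Jund itself was at 198, 314 and 270 CPM across CONTROL and 336, 493 and 549 CPM across HOXA13, with a fitted difference of 0.82 (SE 0.24) and an edgeR adjusted p of 0.186. It was 1.00 with an adjusted p of 0.00577 by limma voom, and 0.96 with an edgeR adjusted p of 0.0294 without CONTROL replicate 2.

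Within the Fos family the shares varied between libraries within each group. Fos made up 23.0%, 49.2% and 24.5% of the family in the CONTROL replicates and 23.1%, 38.5% and 33.5% in the HOXA13 replicates. Fosl1 made up 39.5%, 28.2% and 37.3% in CONTROL and 51.3%, 29.7% and 34.4% in HOXA13, and was the largest share in CONTROL replicates 1 and 3 and in HOXA13 replicates 1 and 3. Fos was the largest share in the replicates numbered 2 of both groups. Fosb reached at most 12.3% and Fosl2 between 12.2% and 29.6% of the family. The p of the 4 Fos family shares ranged from 0.8 to 0.9 (exact permutation test, two-sided).

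**Figure D3:**
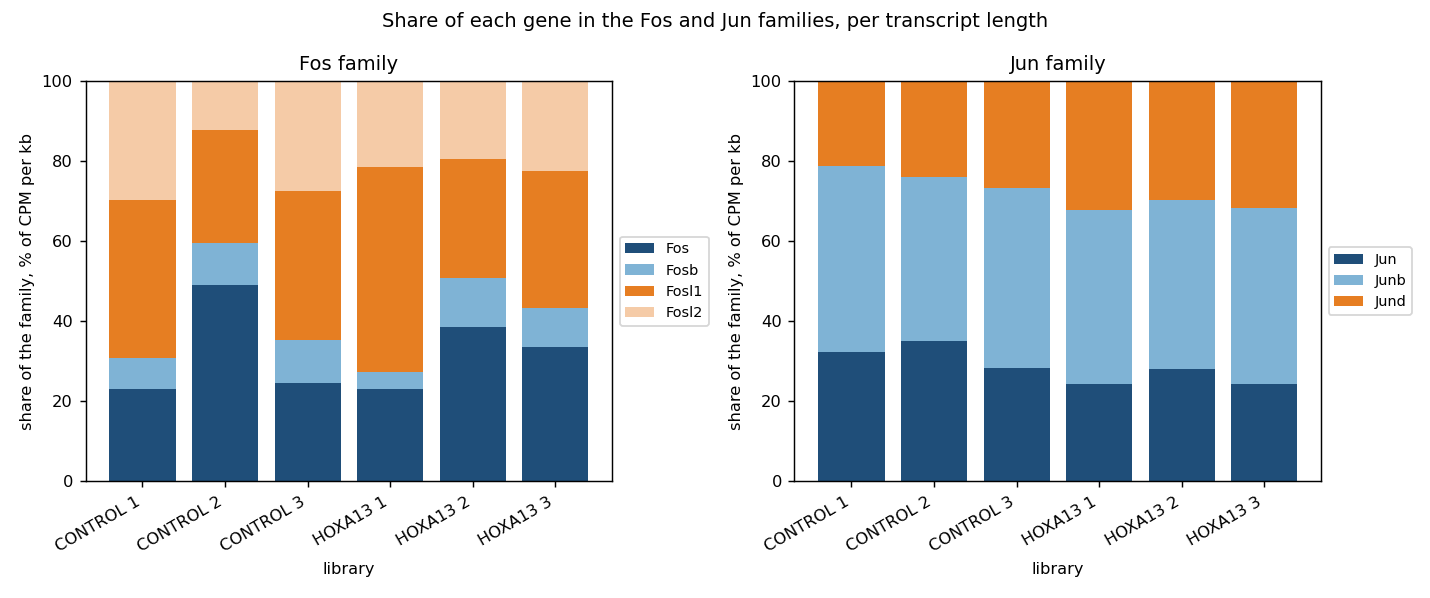
Share of each gene (y axis, % of the family's summed CPM per kb of exon) in the Fos family and the Jun family for each library (x axis). Jund takes 21.2% to 26.6% of the Jun family in CONTROL and 29.8% to 32.2% in HOXA13, while the Fos share runs from 23.0% to 49.2% and is largest in CONTROL replicate 2.

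Egr1 encodes a zinc finger factor that growth signals induce through serum response elements (ENSMUSG00000038418.6, mm9 chr18:35020861-35024638). It had the highest mean level of the set in CPM, with 348, 743 and 261 CPM across CONTROL and 180, 950 and 684 CPM across HOXA13. HOXA13 replicate 1 was the lowest and HOXA13 replicate 2 the highest library of all, a ratio of 5.27 within the group, and the CONTROL libraries differed by up to 2.85 times. HOXA13 against CONTROL differed by 0.42 (SE 0.59, 95% interval -0.93 to 1.78, edgeR adjusted p = 0.814). Without HOXA13 replicate 2 it was -0.08, the only change of sign among 14 alternatives. It was 0.98 without CONTROL replicate 2, 0.84 without HOXA13 replicate 1 and 1.06 by limma voom, with adjusted p of 0.275, 0.554 and 0.109. The model Gm17507 overlaps Egr1 on the opposite strand.

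Ier2 encodes a small nuclear protein of the serum response (ENSMUSG00000053560.4, mm9 chr8:87185230-87186751). Its values were 181, 292 and 149 CPM across CONTROL and 133, 199 and 198 CPM across HOXA13. CONTROL replicate 2 stood above the other libraries, and the remaining values of the groups overlapped. In the fit the groups differed by -0.23 (SE 0.28, 95% interval -0.87 to 0.41, edgeR adjusted p = 0.783) and turned to 0.09 without CONTROL replicate 2.

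Atf3 encodes a factor of the ATF and CREB family that stress signals raise and that can repress its own promoter (ENSMUSG00000026628.8, mm9 chr1:192994175-193007219). It showed the largest fitted difference of the set. Its level was 156, 168 and 141 CPM across the CONTROL replicates and 167, 377 and 276 CPM across the HOXA13 replicates. HOXA13 replicates 2 and 3 were above every CONTROL library, while HOXA13 replicate 1 lay just below CONTROL replicate 2. Group means were 155 ± 13.97 and 273 ± 105 CPM (SD, n = 3 each). In the fit the difference was 0.82 (SE 0.28, 95% interval 0.18 to 1.46), with an unadjusted edgeR p of 0.0182 and an adjusted p of 0.241. By limma voom it was 0.98 with an adjusted p of 0.0152, and over all alternatives the adjusted p ranged from 0.0152 to 0.646. Without HOXA13 replicate 2 the difference was 0.49.

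The median log2 fold change of the 470 expressed genes of chromosome 1, on which Atf3 lies, was 0.53. Among chromosomes without a member it was 0.33 over 300 genes on chromosome 14 and -0.17 on chromosome 11. The medians of the chromosomes that hold the other members lay between -0.04 and 0.03. Relative to the median of chromosome 1, a comparison added with earlier results of these data known, the difference of Atf3 was 0.28, and that of Junb relative to chromosome 8 was 0.43. The part of the chromosome in the result for Atf3 was not tested. The 3 genes with the profile nearest to Atf3 over the 6 libraries were Kctd3, Mfsd7b and Tfb2m, which are all on chromosome 1 too, with root mean square differences of 0.15 to 0.17 on the log2 scale.

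Dusp1 encodes MKP1, the phosphatase that removes the activating phosphates from p38, JNK and ERK (ENSMUSG00000024190.6, mm9 chr17:26642535-26645464). It was at 260, 353 and 320 CPM across CONTROL and at 208, 314 and 282 CPM across HOXA13. HOXA13 replicate 1 was again the lowest library, and HOXA13 replicate 2 lay just below CONTROL replicate 3. The log2 fold change was -0.21 (SE 0.20, 95% interval -0.68 to 0.25, edgeR adjusted p = 0.713).

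Myc encodes a factor of growth and ribosome production, and is a slower member of the early response (ENSMUSG00000022346.8, mm9 chr15:61816946-61821929). Its level was 89.7, 122 and 91.0 CPM across CONTROL and 107, 97.6 and 113 CPM across HOXA13. All HOXA13 libraries were above CONTROL replicates 1 and 3 and below CONTROL replicate 2. The fitted difference was 0.07 (SE 0.18, 95% interval -0.33 to 0.48, edgeR adjusted p = 0.904). Of the summed Myc and Mycn level per length, Myc made up 87.1%, 76.8% and 86.6% in CONTROL and 79.1%, 86.8% and 89.9% in HOXA13. The share was lowest in CONTROL replicate 2 and HOXA13 replicate 1, the libraries with the highest pluripotency marker sums, and a part of such cells in it was not tested.

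Several of the genes were low or high in the same libraries. HOXA13 replicate 1 was the lowest of the 6 libraries for 6 genes, Fos, Fosb, Jun, Egr1, Ier2 and Dusp1, and the highest for Fosl1. CONTROL replicate 2 was the highest for Fos, Ier2, Dusp1 and Myc, and HOXA13 replicate 2 for Fosb, Jun, Egr1 and Atf3. The mean of the 10 genes' log2 levels, each centred on its own mean, was -0.28, 0.33 and -0.21 in the CONTROL replicates and -0.52, 0.44 and 0.25 in the HOXA13 replicates. The replicates numbered 2 were thus the highest of each group.

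**Figure D4:**
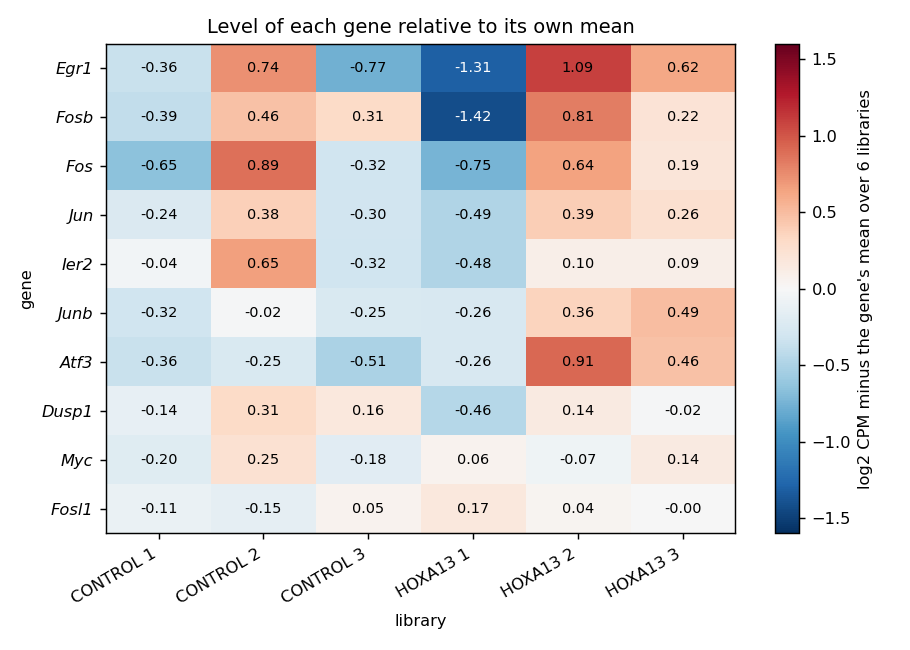
Level of each gene (rows) in each library (columns) as log2 CPM minus the gene's mean over the 6 libraries, red above and blue below the mean. Egr1 runs from -1.31 in HOXA13 replicate 1 to 1.09 in HOXA13 replicate 2, while Fosl1 stays between -0.15 and 0.17.

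As a measure of spread between replicates, edgeR's biological coefficient of variation was read for each gene beside its trend at the same level. Egr1 had 49.8%, against 23.5% by the trend, a ratio of 2.12. Fos had 40.1% and Fosb 43.4%, with ratios of 1.71 and 1.62. These 3 of the 10 genes were over 1.5 times the trend, beside 5.63% of all tested genes. The same limit was passed by 12 of 16 epithelial, 12 of 20 mesenchymal and 9 of 13 pluripotency markers, so a large spread was not limited to the early genes. Jun, Ier2 and Atf3 lay near the trend, with ratios of 1.13, 1.13 and 1.12. Junb, Dusp1, Myc and Fosl1 were below it, at 0.94, 0.90, 0.80 and 0.73.

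**Figure D5:**
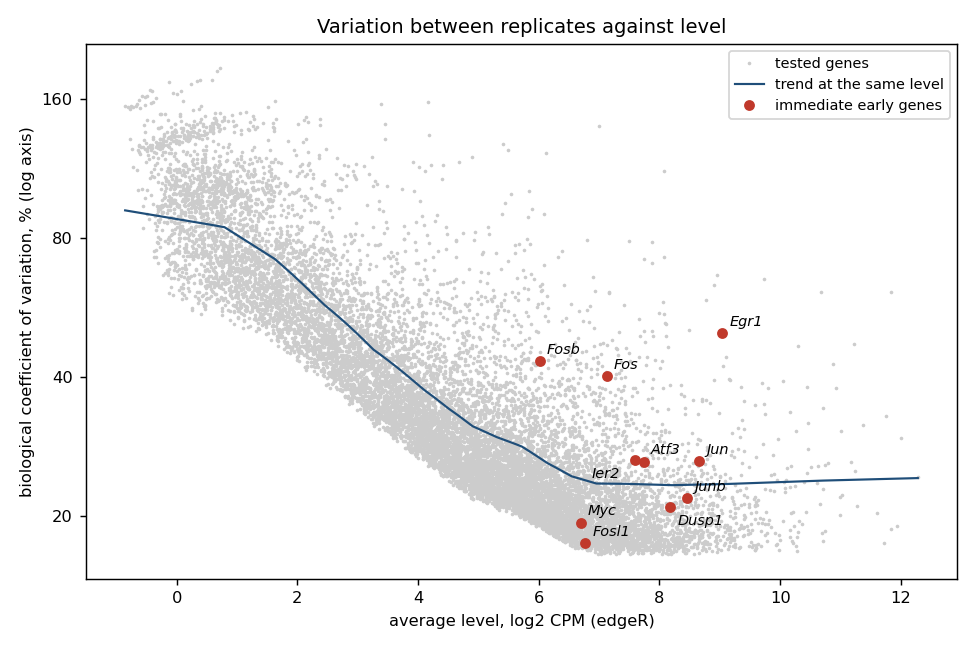
Biological coefficient of variation between replicates (y axis, %, log axis) against the average level (x axis, log2 CPM) for all 13600 tested genes (grey), with edgeR's trend as a line and the 10 immediate early genes in red. Egr1, Fos and Fosb lie above the trend at 49.8%, 40.1% and 43.4%, and Fosl1 is lowest of the set at 17.5%.

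The likeness of profiles was measured as the root mean square difference in centred log2 CPM over the 6 libraries, among 8443 genes that averaged 16 CPM or more. Within the set, Jun and Ier2 were nearest to each other at 0.19, and Fosl1 and Myc were at 0.21. Egr1 and Fosl1 were farthest apart at 0.93. Outside the set, the gene nearest to Egr1 was Arc at 0.36, itself an immediate early gene known from neurons. Fos was nearest to Pcdh17 at 0.20 and Fosb to Adam8 at 0.15, with Hes1 and Klf11 next for Fosb. Jun was nearest to Fbxo33 at 0.06, Junb to Crybg3 at 0.08, with Hbegf, an EGF receptor ligand, also near at 0.09. The genes nearest to Ier2, Dusp1, Myc and Fosl1 were Tmx2, Slc15a4, Lars and Emc2, at 0.11 or less.

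Arc was at 109, 249 and 59.3 CPM across CONTROL and at 85.1, 215 and 224 CPM across HOXA13. As for Egr1, CONTROL replicate 2 and HOXA13 replicates 2 and 3 were the 3 highest libraries. Arc was picked for its nearness to Egr1 over these same libraries, so this likeness follows from the choice and is no separate result. HOXA13 against CONTROL differed by 0.33 (SE 0.53, edgeR adjusted p = 0.846).

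Genes of the same pathways were read from further lists. For comparison, 14.1% of all tested genes had an unadjusted edgeR p under 0.05, and for 20.0% the groups did not overlap. Some of the genes named from these lists were chosen because their groups did not overlap. Of 8 tested AP-1 and small Maf genes outside the set, edgeR called 0. At an unadjusted p under 0.05, 1 was higher and 1 lower, and the median was -0.04. Fosl2, the remaining Fos gene, was at 258, 146 and 284 CPM across CONTROL and 175, 252 and 242 CPM across HOXA13. CONTROL replicate 2 was lowest there, the reverse of its place for Fos. The fitted difference of Fosl2 was -0.04 (SE 0.27, edgeR adjusted p = 0.971).

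Of 21 other immediate early transcription factors, edgeR called 0. At an unadjusted p under 0.05, 0 were higher and 1 lower, and the median was -0.17. Id3, an inhibitor of basic helix-loop-helix factors, was that gene, at 142, 82.3 and 147 CPM across CONTROL and 51.9, 63.3 and 47.3 CPM across HOXA13. All its HOXA13 libraries were below all CONTROL libraries, with a fitted difference of -1.19 (SE 0.25) and an edgeR adjusted p of 0.102. Id3 was called by DESeq2 (adjusted p = 0.00133) and by limma voom (adjusted p = 0.00206). Klf6 and Klf4, zinc finger factors and the most abundant of the list, differed by 0.35 (SE 0.22) and 0.64 (SE 0.34), with edgeR adjusted p of 0.546 and 0.449. Klf4 was at 1.13 without CONTROL replicate 2 (edgeR adjusted p = 0.00733) and at 0.97 by limma voom (adjusted p = 0.0110).

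Of 28 other immediate early effectors, edgeR called 0. At an unadjusted p under 0.05, 5 were higher and 2 lower, and the median was 0.13. Pim1, a serine kinase, was at 54.3, 184 and 106 CPM across CONTROL and 317, 342 and 413 CPM across HOXA13. Its groups did not overlap, with a fitted difference of 1.64 (SE 0.39) and an edgeR adjusted p of 0.124. Plk3, a stress-responsive polo-like kinase, differed by 1.16 (SE 0.36, edgeR adjusted p = 0.205). Pim1 and Plk3 were called by DESeq2 (adjusted p = 0.00112 and 0.0388) and by limma voom (adjusted p = 0.00153 and 0.00975). The most abundant genes of the list were Cyr61, a matrix protein, and Plk2, with differences of -0.27 (SE 0.19) and -0.43 (SE 0.19) and edgeR adjusted p of 0.613 and 0.376.

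Of 10 MAP kinase phosphatases other than Dusp1, edgeR called 0. At an unadjusted p under 0.05, 3 were higher and 1 lower, and the median was 0.41. Dusp4, a nuclear phosphatase of the ERK pathway, was at 657, 373 and 849 CPM across CONTROL and 262, 285 and 234 CPM across HOXA13. The groups did not overlap, and the fitted difference was -1.27 (SE 0.28, edgeR adjusted p = 0.112). Dusp4 was called by DESeq2 (adjusted p = 0.000885) and by limma voom (adjusted p = 0.00153). Dusp9 and Dusp10, which act on ERK and on JNK and p38, differed by 0.51 (SE 0.26) and 0.62 (SE 0.19), with edgeR adjusted p of 0.432 and 0.188. By limma voom their adjusted p were 0.0449 and 0.0183. Dusp10 lies on chromosome 1, and its difference relative to the median there was 0.08.

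Of 17 genes for SRF, its partners and the MAP kinases, edgeR called 0. At an unadjusted p under 0.05, 2 were higher and 0 lower, and the median was 0.17. Elk4, a ternary complex partner of SRF, was at 18.1, 16.6 and 21.0 CPM across CONTROL and 41.3, 40.4 and 39.4 CPM across HOXA13. Its values were close within each group, with a fitted difference of 1.12 (SE 0.20) and an edgeR adjusted p of 0.0750. Elk4 too lies on chromosome 1, and relative to its median the difference was 0.58. Rps6ka1, a kinase downstream of ERK, differed by 1.13 (SE 0.31, edgeR adjusted p = 0.167). Elk4 and Rps6ka1 were called by DESeq2 (adjusted p = 0.000915 and 0.0218) and by limma voom (adjusted p = 0.00672 and 0.00162). Mapk14, which encodes p38 alpha, differed by 0.34 (SE 0.17, edgeR adjusted p = 0.421).

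Of 10 genes of the MYC family and its partners and 16 MYC target genes, edgeR called 0. At an unadjusted p under 0.05, 1 of each list was higher and 0 lower, and the medians were -0.08 and -0.02. Max, the partner of MYC, was higher in every HOXA13 library than in any CONTROL library, with a difference of 0.43 (SE 0.16, edgeR adjusted p = 0.290), and Mga differed by -0.04 (SE 0.17, edgeR adjusted p = 0.945). Ncl, for the nucleolar protein nucleolin, was at 1202, 2067 and 1463 CPM across CONTROL and 2845, 2417 and 2461 CPM across HOXA13. Its difference was 0.71 (SE 0.22, edgeR adjusted p = 0.207), and 0.17 relative to the median of chromosome 1, on which it lies. Npm1, for nucleophosmin, and Eif4e, for the cap-binding factor, differed by 0.00 (SE 0.23) and 0.32 (SE 0.16), with edgeR adjusted p of 0.997 and 0.425.

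Heat shock genes, which dissociation is also known to raise, gave 0 edgeR calls among 12. At an unadjusted p under 0.05, 1 was higher and 0 lower, and the median was 0.44. Hspa1a, picked for its spread after its values were seen, was at 196, 980 and 81.1 CPM across CONTROL and 289, 520 and 889 CPM across HOXA13. Its coefficient of variation was 2.84 times the trend, and CONTROL replicate 2 was highest, as for Fos. The copy Hspa1b, nearly identical in sequence, had a ratio of 2.70, and reads of the pair may be split between them. Hspd1, a mitochondrial chaperone on chromosome 1, differed by 0.63 (SE 0.20, edgeR adjusted p = 0.213), and by 0.10 relative to the chromosome's median. The most abundant, Hsp90ab1 and Hsp90aa1, differed by 0.14 (SE 0.25) and 0.33 (SE 0.39), with edgeR adjusted p of 0.858 and 0.776. Hsp90aa1 was at 0.98 without CONTROL replicate 2 (edgeR adjusted p = 0.00524) and at 0.82 by limma voom (adjusted p = 0.0220).

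Of 12 genes of ATF4 and the unfolded protein response, a path by which Atf3 can also be raised, edgeR called 0. At an unadjusted p of 0.05, 0 passed, and the median was 0.14. Atf4 itself was at 336, 444 and 341 CPM across CONTROL and 333, 471 and 431 CPM across HOXA13, in overlapping groups, with a difference of 0.14 (SE 0.19, edgeR adjusted p = 0.814). Hspa5, the chaperone BiP, differed by 0.13 (SE 0.23, edgeR adjusted p = 0.861). Over these 9 lists DESeq2 called 7 of 135 genes (5.19%), beside its 5.05% of all genes, among them Id3, Pim1, Plk3, Dusp4, Rps6ka1 and Elk4. Without CONTROL replicate 2 edgeR called 26 of them (19.3%), beside 14.2% of all genes. Of the genes named with values these were 11, namely Jund, Klf4, Id3, Pim1, Plk3, Dusp4, Rps6ka1, Elk4, Ncl, Hsp90aa1 and Hspd1. By limma voom 31 of 133 were called (23.3%), beside 15.4% of all genes, among them the same 11 with Dusp9, Dusp10 and Max.

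Marker levels of cell types are given beside these results. Of all tested genes, 48.8% were fitted higher in HOXA13 and 14.1% had an unadjusted p under 0.05. All 16 epithelial markers were fitted higher in HOXA13, with a median of 1.24 and 11 at an unadjusted p under 0.05, and 17 of 20 mesenchymal and fibroblast markers were fitted lower, with a median of -1.48 and 8 at an unadjusted p under 0.05. Of both lists 0 were called by edgeR, and DESeq2 called 2 epithelial and 1 mesenchymal marker, where it called 5.05% of all genes. Cldn4, a tight junction gene, differed by 1.07 (SE 0.43, edgeR adjusted p = 0.322) and Vim, for vimentin, by -2.64 (SE 0.78, edgeR adjusted p = 0.186). The 11 blood and macrophage markers summed to 71.5 to 139 CPM across CONTROL and 41.3 to 93.2 CPM across HOXA13, with the haemoglobin genes Hbb-b1 and Hba-a1 at 0 in every library. The 12 markers of the mesonephric feeder summed to 50.5 to 64.7 CPM and 41.9 to 49.6 CPM. In such bulk RNA a change in the share of a cell type and a change of RNA per cell cannot be told apart, and the part of cell type composition in the values of the immediate early genes was not tested.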

How the data were processed

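RNA from 3 CONTROL and 3 HOXA13 samples had been sequenced as stranded poly-A libraries with reads of 75 bases. Per the submitters' processing notes, reads were processed with bcl2fastq 2.17, aligned to mm9 with TopHat2 2.0.14 and counted with HTSeq 0.6.1p1. The deposited values are raw counts per gene symbol. The annotation, the strand option and the handling of reads with several alignments are not given in the sources used here, so overlapping and closely related genes are uncertain. All libraries were fitted in R 4.3.3 with edgeR 4.0.16 (filterByExpr by group, minimum count 10 and minimum total 15; TMM; glmQLFit and glmQLFTest, group only; Benjamini-Hochberg over 13600 genes, threshold 0.05), and the code was tested on simulated data. DESeq2 1.42.0, the study's tool, limma 3.58.1 voom, other scalings and filters, a replicate block and leaving out each library were alternatives. Normalised CPM used TMM-scaled totals. A floor of 3 counts corresponded to 0.176 to 0.240 CPM and covers counting error only. Gene positions and exon lengths came from GENCODE M1 (mm9), and promoters from RefSeq (GRCm38.p6). Chromosome medians used genes of at least 16 CPM.

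The members and lists were chosen with earlier results of these data known. Named were all 10 members and, from each other list, called genes, the 2 most abundant and the 2 with the largest difference without overlap; of the marker lists only a few of these are given. A gene that this rule names is not reported here. The 3 nearest profiles were taken per member.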

Additional observations from a re-analysis of the deposited data

How the results depend on the processing

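The count of 0 immediate early genes called held under DESeq2, the edgeR 4 method, other scalings and filters, the replicate block and leaving out each library (0 to 0), and was 2 by limma voom. Over all genes, where 42 were called, DESeq2 called 722, limma voom 2101, the edgeR 4 method 106, no filter 163, a mean of at least 50 counts 9 and the replicate block 0, and leaving out 1 library gave 0 to 2006, the latter without CONTROL replicate 2. In the other lists, where 0 were called, DESeq2 called 7, limma voom 31, no filter 1 and leaving out 1 library 0 to 26. Leaving out 1 library gave 0 to 2 members without overlap, the 2 being Atf3 and Myc without CONTROL replicate 2, and Junb and Atf3 without HOXA13 replicate 1. Over all tested genes the groups did not overlap for 49.2% and 30.2% in these 2 comparisons, and for 24.9% to 28.2% when another library was left out. The median of the members was 0.32 by limma voom and 0.10 with the replicate block, and -0.08 to 0.31 when 1 library was left out.

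Several differences changed sign. Fos was -0.014 with DESeq2 and with RLE scaling, -0.044 with upper quartile scaling, -0.0098 with no filter and -0.025 with a mean of at least 50 counts. By limma voom Fosb was 0.15, Ier2 0.17 and Npm1 0.11, and Npm1 was 0.017 with the replicate block. Leaving out 1 library gave -0.36 to 0.60 for Fos, -0.57 to 0.36 for Fosb, -0.072 to 0.36 for Jun, -0.082 to 0.98 for Egr1, -0.44 to 0.086 for Ier2, -0.028 to 0.21 for Myc, -0.30 to 0.12 for Fosl2, -0.047 to 0.45 for Hsp90ab1, -0.030 to 0.39 for Hspa5, -0.19 to 0.046 for Mga and -0.16 to 0.22 for Npm1. The causes were not tested. Fosl1, Junb, Atf3 and Dusp1 kept their sign under every alternative run, but not their size. When 1 library was left out Fosl1 was 0.072 to 0.18, Junb 0.26 to 0.60, Atf3 0.49 to 1.06 and Dusp1 -0.37 to -0.073. Whether the replicate numbers pair the samples is not stated. Deviations from the group mean correlated at -0.21, -0.27 and 0.10 between same-numbered samples. Between samples of unlike number they correlated at -0.21 to 0.29. With 3 samples per group that differ in cell type markers, these values cannot settle whether the samples were paired.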
